A study of Mus musculus with 32 samples.

Results

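The comparison described here set 4 kidneys of wild type C57BL/6 mice taken 72 h after cisplatin against 4 taken 48 h after it, which are 8 of the 32 arrays of the study. The members were the arrays whose titles name wild type kidney at 72 h or 48 h, and no measured value was used to choose them. All mice of both groups were males of 12 to 16 weeks that had received 1 injection of 20 mg/kg cisplatin, and each array held whole-kidney RNA of a different animal. The other groups of the study, also of 4 arrays each, were wild type kidneys at 24 h, saline-injected wild type kidneys (0 h), and the same 4 times in miR-155-/- mice (strain B6.Cg-Mir155tm1.1Rsky/J), in which the gene of the microRNA miR-155 is disrupted. The miR-155-/- line and the wild type mice came from different suppliers.

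Cisplatin is a platinum drug that crosslinks DNA and stops transcription, and the proximal tubule, the stretch of the nephron that reabsorbs most of the filtered solutes, takes it up. Proximal tubule cells live mainly on fatty acid oxidation, which the nuclear receptor PPAR alpha drives, and lose part of it in acute kidney injury. Injured tubules release proteins such as NGAL (Lcn2) and KIM-1 (Havcr1), while p53 targets and immediate early genes answer the DNA damage and stress. Surviving tubule cells can later regain transport and metabolism, so the interval from the second to the third day asks which parts of the response were still changing.

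Levels are given as scaled intensities, on which the 75th percentile of each array is 1000, and differences as log2 of 72 h over 48 h with the standard error of the fit (4 arrays each). The spread behind the standard errors, p-values and intervals was pooled over all arrays of the study, of both genotypes and all times. It is therefore not the scatter of the compared wild type arrays alone. The threshold for a call was an adjusted p of 0.05. Intensities of different genes come from different probes and were not compared with each other. In whole tissue, fewer cells of a type and less RNA per cell cannot be told apart.

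The arrays carried the markers of kidney. Umod, the urinary protein of the thick limb, lay at 106000 to 136000 at 72 h and 87800 to 111000 at 48 h, and Lrp2, the endocytic receptor megalin of the proximal tubule, at 30100 to 34500 at 72 h and 20100 to 39300 at 48 h. Between 69.2% and 81.7% of the probes of these 8 arrays were well above background. Adipocyte markers differed between animals of the same group. The mean log2 level of 7 adipocyte genes, relative to the 75th percentile of the array, was -1.22, -4.25, -3.64 and -3.56 on the 4 arrays at 72 h, and 0.53, -0.51, -0.82 and -3.36 on the 4 arrays at 48 h. Adipocyte transcripts were thus high on 1 of 4 arrays at 72 h and on 3 of 4 at 48 h. For example Cfd, the adipocyte protease adipsin, read 1820, 16.1, 52.9 and 25.9 at 72 h and 3800, 2770, 2590 and 139 at 48 h. The comparison was therefore also fitted with this score as a covariate, and on the 3 arrays at 72 h and the 1 array at 48 h that were low in it. With the covariate, 7 of the 30 called rises outside the parallel features that were followed through the alternatives and 3 of 13 such falls were still called, and all kept their direction.

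Of 23743 genes and transcripts tested, 157 were higher at 72 h (0.661%) and 50 were lower (0.211%). At an unadjusted p under 0.05 there were 1029 higher (4.33%) and 895 lower (3.77%), or 8.1% in either direction. The values of the 2 groups did not overlap for 9.22% of all genes tested, with 72 h above for 4.4% and below for 4.82%, and 52.4% were higher at 72 h by any amount. The number called depended on single animals. It was 50 higher and 12 lower without 72 h replicate 3, 55 and 10 without 72 h replicate 4, 67 and 15 without 48 h replicate 1, 103 and 16 without 72 h replicate 2, and 104 and 16 without 48 h replicate 2. Without 48 h replicate 4 there were 127 higher and 27 lower.

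The larger part of the rises was 1 pattern seen many times. Of the 157 features called higher, 84 had nearly the same profile over all 32 arrays: each correlated above 0.95 with at least 39 of the other called rises, whereas none of the remaining 73 did so with more than 10. Their pairwise correlations had a median of 0.987. On average these 84 features lay, relative to their own mean over the 32 arrays, between -0.90 and -0.34 (log2) on the saline arrays, between -1.08 and -0.76 at 24 h, between -0.20 and 0.36 at 48 h and between 1.01 and 1.88 at 72 h. The changes at 72 h against 48 h ran from 0.76 to 1.57, with a median of 1.30.

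The 84 parallel features were listed for genes of unrelated function, 59 of them with a symbol. The probe listed for Hecw1, a ubiquitin ligase of neurons, read 9350, 11300, 15300 and 18500 at 72 h against 3270, 4660, 5320 and 4790 at 48 h (1.57 ± 0.27, adjusted p = 0.00328). The probe listed for Scn8a, a sodium channel of nerve cells, read 4280, 4650, 7180 and 8170 at 72 h against 1700, 2390, 2320 and 2030 at 48 h (1.48 ± 0.26, adjusted p = 0.00368). In both, every 72 h array lay above every 48 h array. Among the 12 largest rises with a symbol the parallel features also included the probes listed for Golga7b, Gxylt2, I730030J21Rik, Btn1a1, Zfp791 and Atxn7 (1.45 to 1.55).

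Other probes of the same genes did not follow. The arrays held 38 further probes, well above background on all 4 arrays of either group, for 27 of these genes. None of the 38 correlated above 0.95 with the mean of the parallel features (median r -0.046), and in a fit over all probes none was called higher or lower. Their median change was -0.01, with a range of -1.01 to 0.43. For Scn8a the other probe changed by -0.15, for Gxylt2 by 0.02 and for Atxn7 by 0.13. The rises of these 84 are therefore given as those of the probes, and the genes described next are the other 73 (0.307% of genes tested) and the 50 falls. In a fit without the parallel features, 39 rises and 21 falls were called. Of the genes followed through the alternatives, Slc38a3, Ucp2, Ucp3, Trappc9, Slc39a11, Ube2e2, Tsc22d1, Zdhhc19, Pvalb, Defb19, Meig1, Ccdc182, Gm4952, Gm5640 and Mcm6 then missed the threshold, with unchanged differences. The parallel set was defined after the values were seen.

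**Figure D1:**
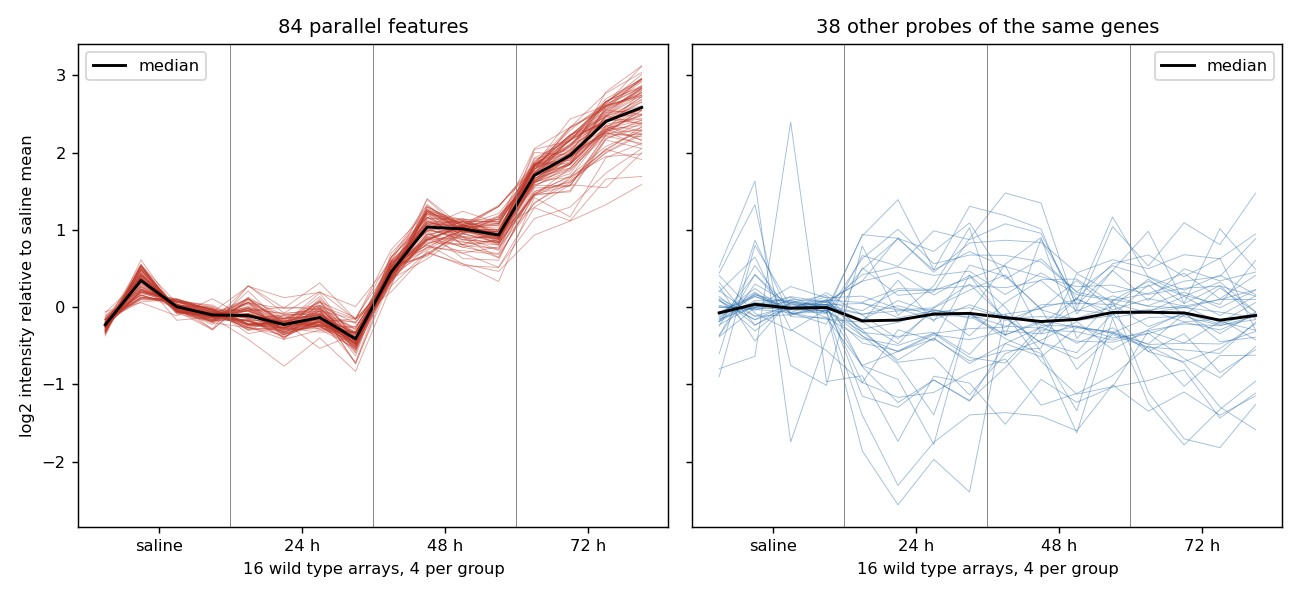
Level on the 16 wild type arrays (4 per group, marked off by vertical lines) relative to the saline mean, as log2 intensity, for the 84 parallel features (left) and for 38 other probes of the same genes (right). Each thin line is 1 feature and the black line the median. The parallel features lie close together at every array and are highest at 72 h, while the median of the other probes stays near 0.

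Outside the parallel set, 73 features were higher at 72 h, 69 of them with a symbol, and 22 of the 73 by 2-fold or more. The largest rise among those with a symbol was that of Lrg1, a secreted leucine-rich glycoprotein of the acute phase. Lrg1 read 4890, 7380, 8250 and 9130 at 72 h against 2050, 2660, 1700 and 2080 at 48 h, a 3.45-fold difference (1.79 ± 0.33, adjusted p = 0.00547). All 4 values at 72 h lay above all 4 at 48 h. The call held without any 1 of the 8 arrays and with the adipocyte score as a covariate (1.69), and on the arrays low in adipocyte markers the difference was 1.98. Lgi2, a secreted protein of the leucine-rich glioma-inactivated family, read 398, 648, 813 and 886 at 72 h against 211, 240, 157 and 238 at 48 h (1.65 ± 0.33, adjusted p = 0.0085). Its mean at 24 h was 36.3 and on saline arrays 24.5, so that its highest levels were those of 72 h. Its call was lost without 72 h replicates 3 or 4 and with the adipocyte covariate (1.52, adjusted p = 0.0679).

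Slc38a3, a glutamine transporter that supplies the proximal tubule with the substrate of ammonia production, read 5090, 7870, 6640 and 7830 at 72 h against 1480, 2340, 3010 and 3110 at 48 h (1.50 ± 0.36, adjusted p = 0.0367). The groups did not overlap. This call was lost without any 1 of 5 arrays (72 h replicates 2, 3 and 4, 48 h replicates 1 and 2), with values of 1.27 to 1.64 over the 8 leave-outs, and with the adipocyte covariate (1.28, adjusted p = 0.222). Car15, a membrane-bound carbonic anhydrase of the kidney, read 13000, 14400, 11900 and 12000 at 72 h against 5710, 5230, 4550 and 5630 at 48 h (1.28 ± 0.25, adjusted p = 0.00926). Its call held without any 1 array, and with the adipocyte covariate the value was 1.21 (adjusted p = 0.0679). Uroc1, the urocanase of histidine breakdown, rose by 1.04, a call that was lost without any 1 of the same 5 arrays as that of Slc38a3 and with the covariate (0.92, adjusted p = 0.141).

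Transport genes of the tubule were among the rises, though few were called. Slc5a10, a sodium-coupled mannose and fructose carrier of the proximal tubule, read 25000, 34200, 42700 and 39500 at 72 h against 12700, 11600, 15100 and 19500 at 48 h (1.27 ± 0.19, adjusted p = 0.000914). It was called without any 1 array and with the adipocyte covariate (1.11). Its mean was 10200 at 24 h and 27200 on saline arrays. Aqp3, the water and glycerol channel of the basolateral membrane of the collecting duct, read 15900, 15700, 13000 and 12400 at 72 h against 7160, 6510, 9020 and 8060 at 48 h (0.89 ± 0.17, adjusted p = 0.00674). At 72 h it lay near its saline mean of 14600, and its call held without any 1 array. Kng1, a kininogen, rose by 0.70, while Kng2, a second kininogen, missed the threshold (0.73 ± 0.19, adjusted p = 0.0692).

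As a list, the 37 proximal tubule transport and metabolism genes had a median change of 0.22, beside 0.011 over all genes tested. None was called, 30 were higher in direction, and at an unadjusted p under 0.05 there were 9 higher and 1 lower. Among those with the smallest p were Fbp1 of gluconeogenesis (0.57), the glycerol channel Aqp7 (0.36) and the dicarboxylate carrier Slc13a3 (0.55), while the amino acid carrier Slc7a13 was lower in value (-0.88). On the arrays low in adipocyte markers the median of the list was -0.06, against 0.22 over all 8 arrays. The mean log2 level of the list on the 72 h arrays, 3.67 to 3.8, lay inside the range of the 48 h arrays. These stood at 3.24, 3.17, 3.89 and 3.83 (replicates 1 to 4), so only replicates 1 and 2 were below the 72 h arrays. Of the 22 collecting duct genes 19 were higher in direction (median 0.13). Aqp3 was the 1 called, beside 0.661% of all genes called higher. The sodium channel subunits Scnn1a (0.51) and Scnn1b (0.50) had an unadjusted p under 0.05. The 24 thick limb and distal convoluted tubule genes had a median of -0.03. Their 1 called fall was that of Pvalb, beside 0.211% of all genes called lower.

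**Figure D2:**
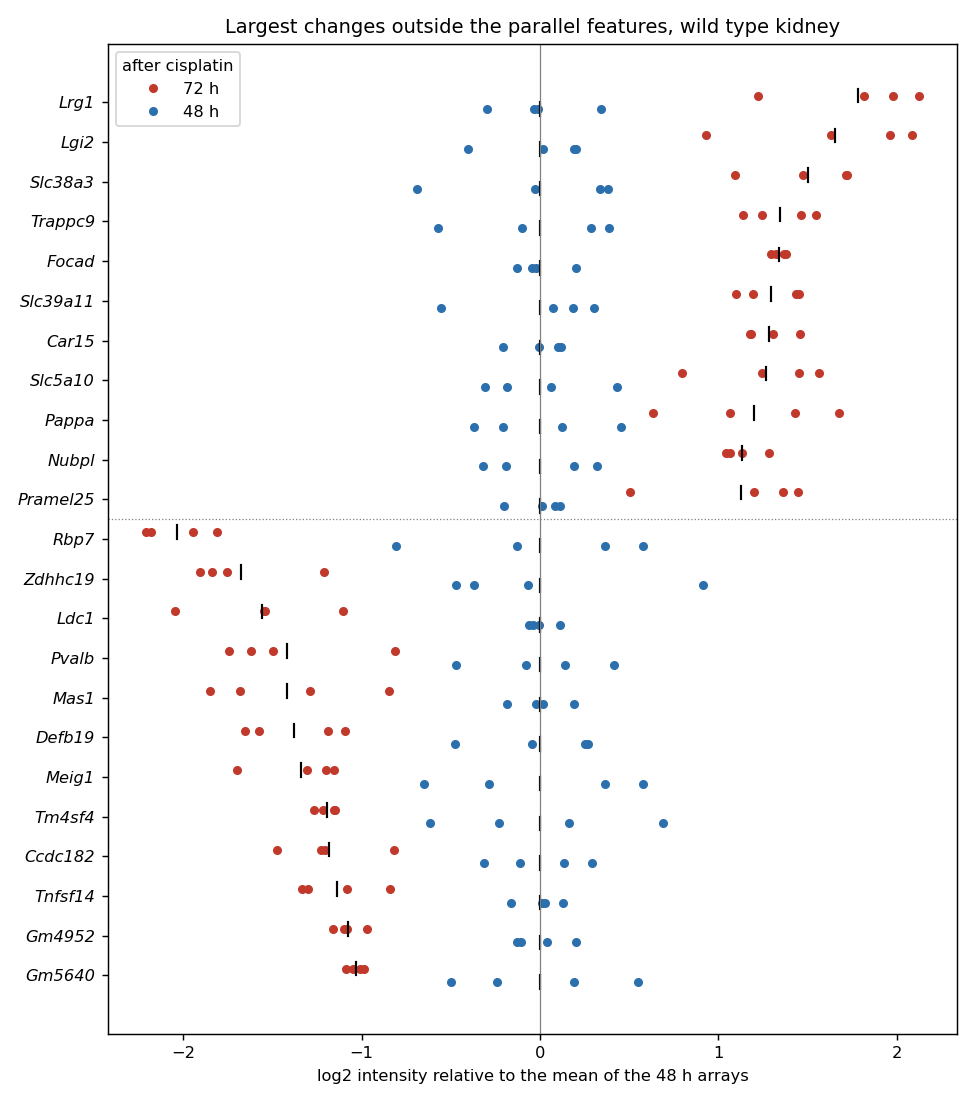
Values of the 4 arrays at 72 h (red, upper row of each gene) and the 4 at 48 h (blue, lower row) for 11 of the 12 largest called rises outside the parallel features and the 12 largest called falls with a symbol, as log2 intensity relative to the mean of the 48 h arrays, with a black bar at each mean. The 2 groups overlap in none of the 23 genes, which was a condition for choosing them.

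Fatty acid oxidation genes were the list with most calls. Of 40 such genes, all measured, 4 were called higher and none lower, beside 0.661% and 0.211% of all genes, and 38 were higher in direction. At an unadjusted p under 0.05 there were 25 higher and none lower, beside 4.33% of all genes higher. The median change of the list was 0.41. Earlier results of these data were known when the list was chosen, so that the count describes the list and is no test of it. Over the 25 alternative settings the median lay between 0.30 and 0.57.

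Among the called members, Acaa2, the thiolase that ends each cycle of mitochondrial oxidation, read 42100, 50400, 65100 and 56000 at 72 h against 28800, 23600, 35400 and 34200 at 48 h (0.81 ± 0.15, adjusted p = 0.00674). The groups did not overlap. With the adipocyte covariate the value was 0.73 and missed the threshold (adjusted p = 0.0599), and the call was also lost without 72 h replicate 3.

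The called members also included Ucp2 and Ucp3, neighbouring genes of mitochondrial carriers that PPAR agonists raise. Ucp3 read 679, 1100, 1300 and 1470 at 72 h against 694, 514, 475 and 515 at 48 h (1.01 ± 0.24, adjusted p = 0.0318). Ucp2 read 880, 1700, 1860 and 1900 at 72 h against 908, 645, 628 and 860 at 48 h (1.01 ± 0.24, adjusted p = 0.0345). In both, 72 h replicate 1 lay within the 48 h range and the other 3 arrays above it. A second probe of Ucp3 changed by 0.53. Each call was lost without most single arrays (6 of 8 for Ucp3, 7 of 8 for Ucp2), with values of 0.87 to 1.24 for Ucp3 and 0.91 to 1.28 for Ucp2, and neither was called with the adipocyte covariate.

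Because the brightest probes of these neighbours changed by the same amount, their promoters are shown. The windows run from 250 bases before to 50 after the transcription start as RefSeq places it on GRCm38.p6, on the plus strand. Capitals mark the half-site of nuclear receptors such as PPAR alpha, searched as AGGTCA or its reverse complement TGACCT.
Ucp3, chr7:100472741-100473040: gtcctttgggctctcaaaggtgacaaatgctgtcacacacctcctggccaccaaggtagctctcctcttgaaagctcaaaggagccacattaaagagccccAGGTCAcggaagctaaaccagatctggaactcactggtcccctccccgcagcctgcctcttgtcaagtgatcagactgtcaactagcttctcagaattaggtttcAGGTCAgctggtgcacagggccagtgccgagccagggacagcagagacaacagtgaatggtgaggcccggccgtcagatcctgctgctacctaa
Ucp2, chr7:100493108-100493407: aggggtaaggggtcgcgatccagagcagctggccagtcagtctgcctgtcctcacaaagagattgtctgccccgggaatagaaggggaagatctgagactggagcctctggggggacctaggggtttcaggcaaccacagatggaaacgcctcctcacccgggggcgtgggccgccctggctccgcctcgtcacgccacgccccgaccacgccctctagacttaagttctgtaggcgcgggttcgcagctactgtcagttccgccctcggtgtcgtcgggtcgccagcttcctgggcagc
The Ucp3 window held the half-site 2 times and the Ucp2 window 0 times. Both genes changed by 1.01 on their brightest probe. A part of the half-site in these changes was not tested. Of the 25 listed genes higher at an unadjusted p under 0.05, 17 had a promoter in the table, and 7 of the 17 (41.2%) held the half-site in at least 1 window, beside 18.1% of 27025 genes. These 25 were picked by their values, so the share is a description, and a match is not a binding site.

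A larger change with a larger standard error stood in the same list. Cyp4a14, a fatty acid omega-hydroxylase and a textbook PPAR alpha target, read 46900, 68700, 87600 and 94900 at 72 h against 10600, 8130, 25300 and 23300 at 48 h (2.26 ± 0.70, adjusted p = 0.148). The groups did not overlap, but the gene did not pass the test. Cyp4a14 was called in 2 of the 14 alternative settings planned beforehand, leave-outs aside. Cyp4a10 (1.03), the peroxisomal enzyme Ehhadh (0.77, adjusted p = 0.0549) and Cpt1a, the carnitine transferase that admits fatty acids to mitochondria (0.47), also missed the threshold. Outside the list, and picked after their values were seen, the oxidation genes Eci1 (0.69), Acot8 (0.67), Abcd3 (0.55) and Hsd17b4 (0.55) rose, as did Dbi (0.45), which binds acyl-CoA, Gpd1 (0.63), of glycerol phosphate synthesis, and Mgll (0.87), a monoglyceride lipase.

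Against saline, in comparisons that share the 48 h or 72 h arrays with this one, the median of the 40 genes was -0.23 at 24 h, 0.09 at 48 h and 0.61 at 72 h. Oxidative phosphorylation genes, the next step of the pathway, had a median of 0.12 between 72 h and 48 h, with 26 of 28 higher in direction and none called, and a range of 0 to 0.16 over the alternatives.

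**Figure D3:**
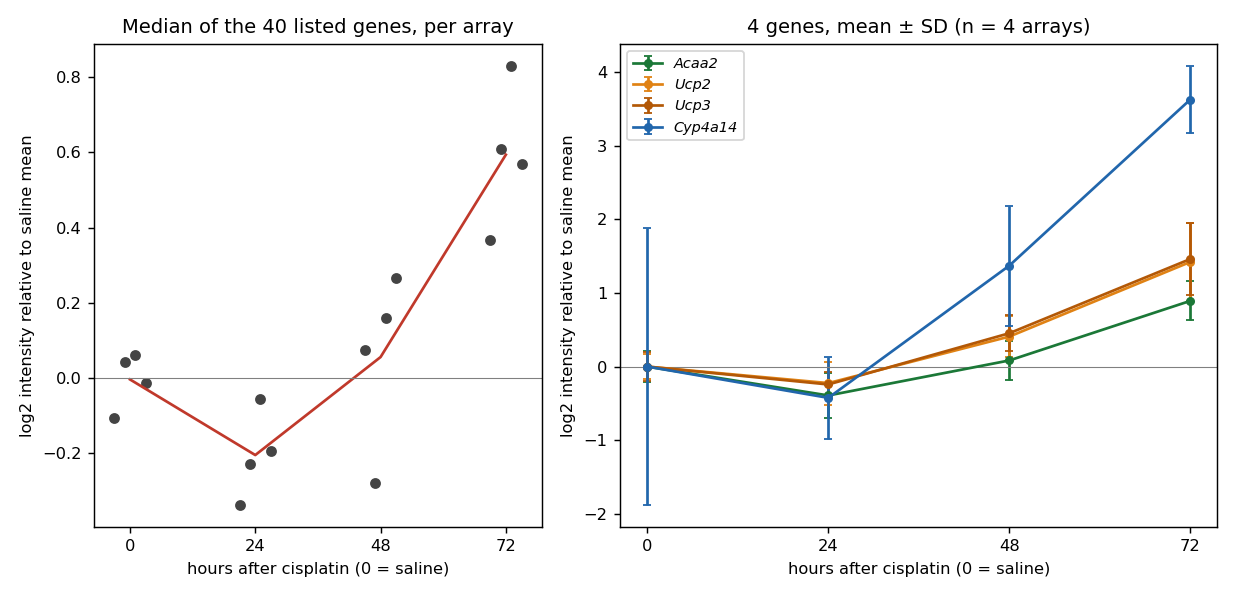
Fatty acid oxidation and PPAR alpha genes over time in wild type kidney, as log2 intensity relative to the saline mean against hours after cisplatin (0 is saline). Left, the median of the 40 listed genes on each array (points, spread sideways for legibility) and the mean of the 4 arrays (line); right, 4 genes of the list as mean ± SD of 4 arrays, of which Acaa2, Ucp2 and Ucp3 were called higher at 72 h than at 48 h.

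Very long genes were common among the rises outside the parallel set. Of the 69 named rises, 21 (30.4%) were genes whose RefSeq span on GRCm38.p6 exceeds 200 kb, while such genes made up 722 of 16381 named genes tested (4.41%). None of the 41 named falls was that long. Focad, a tumour suppressor, read 345, 363, 366 and 352 at 72 h against 162, 129, 136 and 138 at 48 h (1.34 ± 0.22, adjusted p = 0.00218). The groups did not overlap, and the call held without any 1 array and with the adipocyte covariate.

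The long genes that rose had been low before. Focad had a mean of 75.3 at 24 h and 804 on saline arrays. Its level at 72 h was thus still below saline (-1.17 on the log2 scale). The same order held for Trappc9, a subunit of a vesicle tethering complex (1.35 at 72 h against 48 h), the zinc carrier Slc39a11 (1.30), Vps13b, a lipid transfer protein of the Golgi (1.02), and the scaffold Magi1 (0.91), all still between -1.70 and -0.39 at 72 h against saline. Ube2e2, a ubiquitin-conjugating enzyme, rose by 0.98, and its 72 h value against saline was 0.03. A second probe changed by 0.72 for Trappc9, 0.74 for Vps13b and 0.56 for Magi1. The calls of Slc39a11 and Ube2e2 were lost without any 1 of the 8 arrays, and that of Trappc9 without 6 of them (all at 72 h, 48 h replicates 1 and 2), while Vps13b and Magi1 kept theirs. All 21 long rises were called lower at 24 h against saline, in arrays other than those compared here, as were 472 of the 722 long genes and 3434 of all 16381.

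Over all named genes outside the parallel set, called ones included, the median change at 72 h against 48 h was -0.01 for genes up to 10 kb, -0.03 for 10 to 25 kb, -0.02 for 25 to 50 kb, 0.02 for 50 to 100 kb, 0.06 for 100 to 200 kb, 0.14 for 200 to 400 kb and 0.22 for genes over 400 kb. In the 2 longest classes 73.8% and 74.2% of genes were higher at 72 h, and in the shortest 48.1%. Relative to saline, the median of the 722 genes over 200 kb lay between -0.44 and -0.28 on the 72 h arrays and between -0.70 and -0.44 on the 48 h arrays, so that the ranges met at -0.44. On the 24 h arrays it lay between -1.37 and -1.02. These are descriptions over genes, which are not replicates.

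**Figure D4:**
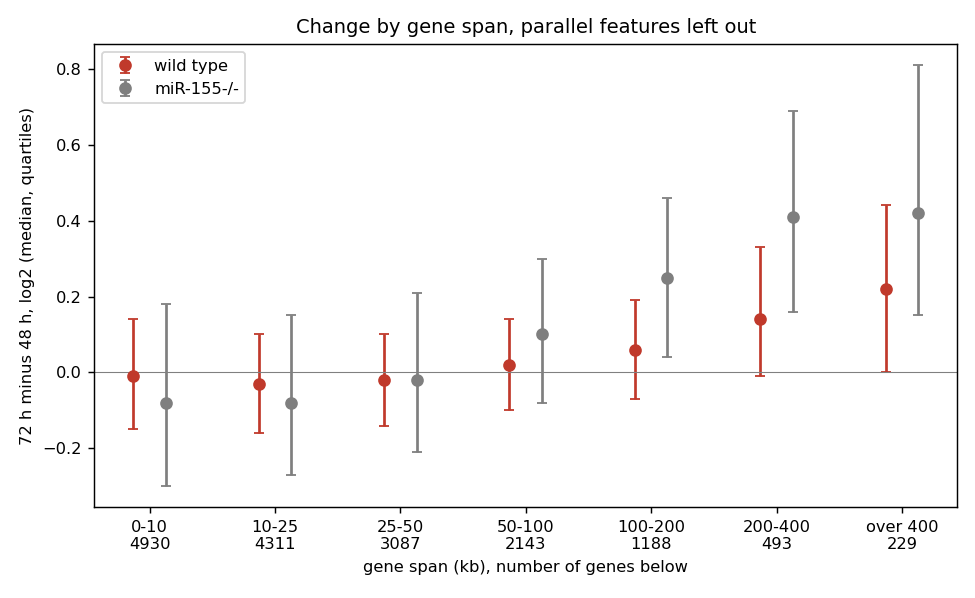
Change at 72 h against 48 h (log2, median and quartiles over genes) by RefSeq gene span in kb, for wild type (red) and miR-155-/- (grey), with the number of genes under each class and parallel features left out. The wild type median goes from -0.01 in the shortest class to 0.22 in genes over 400 kb. The miR-155-/- values include 48 h replicate 3, on which long genes were far lower than on the other arrays of its group.

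Several of the largest falls were in genes that stood far above saline at 24 h. Rbp7, a retinol-binding protein, read 75.9, 68.9, 57.5 and 58.6 at 72 h against 397, 342, 152 and 243 at 48 h (-2.04 ± 0.35, adjusted p = 0.00328). All values at 72 h lay below all at 48 h, the call held without any 1 array and with the adipocyte covariate (-1.77), and on the arrays low in adipocyte markers the difference was -1.98. Its mean was 413 at 24 h and 33.9 on saline arrays. Meig1, a gene of meiotic cells, read 60.1, 78.8, 87.5 and 84.9 at 72 h against 251, 291, 124 and 160 at 48 h (-1.34 ± 0.30, adjusted p = 0.025), and its second probe changed by -1.32. With the adipocyte covariate Meig1 differed by -1.20 (adjusted p = 0.141). Its saline mean was 16.7, and at 24 h it was 262. Zdhhc19, a palmitoyltransferase best known from testis (-1.68), and Gm5640 (-1.03) likewise had means far above saline at 24 h (3.55 and 3.35 on the log2 scale). Ccdc182 was not well above background on any array at 72 h and was at least 1.81-fold lower there than at 48 h.

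Other falls moved away from the saline level. Ldc1, a leucine decarboxylase of mouse kidney, read 597, 441, 438 and 311 at 72 h against 1250, 1380, 1280 and 1230 at 48 h (-1.56 ± 0.25, adjusted p = 0.00218), while its mean was 2920 at 24 h and 5830 on saline arrays. Its call held without any 1 array. Pvalb, the calcium-binding protein parvalbumin of the distal convoluted tubule, read 83.1, 76.1, 69.8 and 133 at 72 h against 169, 258, 222 and 312 at 48 h (-1.42 ± 0.32, adjusted p = 0.0262). Its saline mean was 2220, and a second probe changed by -1.27. With the adipocyte covariate Pvalb differed by -1.49 (adjusted p = 0.0844). Mas1, the receptor of angiotensin-(1-7), read 141, 104, 78.9 and 70.2 at 72 h against 223, 256, 289 and 249 at 48 h (-1.42 ± 0.28, adjusted p = 0.00822), with a second probe at -1.39. None of these 3 genes overlapped between the groups.

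The remaining large falls were the beta-defensin Defb19 (-1.38), the membrane protein Tm4sf4 (-1.20), the TNF family cytokine Tnfsf14 (-1.14) and Gm4952 (-1.08). Defb19 belongs to a family of close relatives, to which its probe's signal could in part belong. Of the 12 largest falls, Rbp7 and Ldc1 kept their call without each of the 8 arrays. The other 10 all lost it without 72 h replicate 3, 9 of them (all but Mas1) also without 72 h replicate 2, and each kept its direction without any 1 array. Of the 28 DNA replication genes tested, 1 fell, beside 0.211% of all genes: Mcm6, a subunit of the replicative helicase, read 3070, 2950, 3010 and 2750 at 72 h against 4350, 4080, 4140 and 3910 at 48 h (-0.49 ± 0.11, adjusted p = 0.0262). That call was lost without any 1 of 72 h replicates 2, 3 and 4 or 48 h replicates 1 and 2, and with the adipocyte covariate (-0.43, adjusted p = 0.155).

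Injury markers did not pass the test. Of 23 tubular injury markers none was called, 15 were higher in direction and 3 were higher at an unadjusted p under 0.05 (median 0.14). Lcn2, which encodes the injury marker NGAL, read 9860, 19400, 15100 and 19400 at 72 h against 5180, 3730, 1770 and 3250 at 48 h (2.24 ± 0.68, adjusted p = 0.134). All 4 values at 72 h lay above all 4 at 48 h. Clu, the chaperone clusterin, differed by 0.74 ± 0.21 (adjusted p = 0.102), and Spp1, the matrix protein osteopontin, by 0.79 ± 0.23 (adjusted p = 0.114), each with 72 h replicate 1 inside the 48 h range. The calls of both were made without 1 array, 72 h replicate 1 for Clu and 48 h replicate 1 for Spp1. Of the 14 alternative settings planned beforehand, leave-outs aside, Lcn2 and Clu were each called in 2 and Spp1 in 1. The spread used for Lcn2 included miR-155-/- 48 h replicate 3, at 42800 against 3450, 3860 and 9000 on the other arrays of its group.

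Havcr1, the tubule membrane protein KIM-1, varied widely within both groups. It read 3000, 7050, 8350 and 9810 at 72 h against 13100, 8850, 1450 and 3150 at 48 h (0.43 ± 0.64, adjusted p = 1). The groups overlapped, and without 48 h replicate 3 the difference was -0.15. That array also had the lowest Lcn2 and Clu values of its group.

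Targets of p53 and immediate early genes showed no called difference. None of 33 p53 targets and none of 18 immediate early genes was called, and none had an unadjusted p under 0.05. Cdkn1a, the cell cycle inhibitor p21, averaged 7260 at 72 h and 7070 at 48 h (0.04 ± 0.29, 95% interval -0.56 to 0.63), and Mdm2, the ubiquitin ligase of p53, 27500 and 27600 (-0.01 ± 0.14, interval -0.30 to 0.28). The stress cytokine Gdf15 differed by 0.33 (interval -0.11 to 0.76), Fos by 0.26 (-0.77 to 1.29), Atf3 by -0.39 (-1.36 to 0.58) and the heme oxygenase Hmox1 by 0.05 (-0.62 to 0.72), and none was called. Against saline the p53 list stood at a median of 2.03 at 24 h, 1.94 at 48 h and 1.97 at 72 h.

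Acute phase genes were higher in value without a call. Of 20 such genes 15 were higher in direction (median 0.32), and 7 did not overlap between the groups, beside 9.22% of all genes in either direction. C3, the central complement protein, read 44000, 50800, 58000 and 54200 at 72 h against 29200, 22100, 17800 and 17200 at 48 h (1.29 ± 0.47, adjusted p = 0.307), and Saa1, serum amyloid A, differed by 1.28 ± 0.46 (adjusted p = 0.276). Saa1 has a near-identical copy, Saa2, so its value is uncertain. C3 and Saa1 were each called in 2 of the 14 alternative settings planned beforehand, leave-outs aside. The spread used for C3 included miR-155-/- 48 h replicate 3, at 1510 against 18100, 12900 and 15200 on the other arrays of its group. Hp, haptoglobin, which adipocytes also make, was lower in value (-1.40). Among 21 genes responsive to glucocorticoids, 19 were higher in direction (median 0.36). This list shares members with others described here, among them Lcn2, its highest at 2.24, Pdk4 and Angptl4. Its 1 called gene, beside 0.661% of all genes called higher, was Tsc22d1, a leucine zipper transcriptional regulator (0.80 ± 0.19, adjusted p = 0.0341). The call was lost without any 1 of 7 arrays and with the adipocyte covariate, and a second probe changed by 0.76. Il1f6, an interleukin 1 family cytokine (1.84, adjusted p = 0.231), was the highest among 22 cytokines and chemokines, none of which was called.

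Some immune and stromal markers were lower in value, again without a call. MHC class II genes had a median of -0.52, with 9 of 10 lower in direction and 5 at an unadjusted p under 0.05. H2-Aa, a class II chain, read 137, 84.5, 78.2 and 115 at 72 h against 268, 162, 172 and 195 at 48 h (-0.95 ± 0.35, adjusted p = 0.315). Of 21 interferon-stimulated genes 20 were lower in direction (median -0.25), and of 20 macrophage and monocyte markers 17 (median -0.35). The mean log2 levels of these lists overlapped between the groups. Interferon-stimulated genes lay at -0.47 to -0.2 at 72 h, inside the -0.62 to 0.4 of 48 h. Macrophage markers lay at -2.33 to -1.83 against -2.06 to -1.45, and MHC class II genes at -2.63 to -2.08 against -2.1 to -1.73. Neutrophil markers had a median of 0.05, with 7 of 13 higher in direction, and lymphocyte markers -0.07, with 5 of 12 higher. Fibroblast and pericyte markers had a median of -0.40, with 6 of 18 lower at an unadjusted p under 0.05, among them the matrix proteins Lum (-1.13), Postn (-1.32) and Mfap5 (-1.08). Their mean log2 level also overlapped, at -2.11 to -1.49 at 72 h against -1.9 to -0.71 at 48 h.

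The adipocyte markers moved with these lists. All 7 were lower in direction at 72 h (median -2.16), 5 at an unadjusted p under 0.05 and none called. Adipoq, the adipocyte hormone adiponectin, was well above background on 3 of 4 arrays at 72 h and on 4 of 4 at 48 h, and Fabp4, a fatty acid carrier of adipocytes and endothelium, read 7540, 4160, 4890 and 5650 at 72 h against 20500, 8780, 9040 and 6470 at 48 h. With the adipocyte score as a covariate the value of Lum was -0.67 and that of H2-Aa -0.80, and on the arrays low in adipocyte markers they were -1.30 and -1.09. Adding that covariate left 48 rises and 11 falls over all genes. Leaving out the arrays high in adipocyte markers, which sets 3 arrays against 1, left 0 rises and 1 fall, with all 123 calls outside the parallel set keeping their direction. The part of adipose tissue in the other results was not tested further.

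The 32 arrays lay on 8 slides, read on 2 scan days. Only 2 slides held both groups, with 1 array of each, and on these the median of the fatty acid oxidation genes was 0.28 and 0.74, that of the MHC class II genes -0.71 and -0.89, and Lrg1 differed by 1.83 and 2.01. Within the scan days the median of the fatty acid oxidation genes was 0.43 and 0.64. That of the interferon-stimulated genes was -0.67 on 1 scan day (3 arrays at 72 h, 2 at 48 h) and 0.24 on the other (1 against 2). These arrays are the same as in the comparison itself.

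The same interval was measured in miR-155-/- mice, in other animals and on other arrays, which shared 1 fit with the wild type arrays and so its estimate of the spread and the choice of features tested. By any amount, 50.3% of all genes were higher at 72 h there. Of all genes tested, 751 were called higher at 72 h (3.16%) and 732 lower (3.08%). These numbers fell to 503 and 544 without miR-155-/- replicate 3 at 48 h, which stood apart from its group. Leaving out each array in turn gave 357 to 918 higher and 325 to 927 lower, both lowest without 72 h replicate 3. A fit of the 8 miR-155-/- arrays of this interval alone gave 10 and 6. Of the 207 features called in wild type, all 207 changed in the same direction in miR-155-/- and 189 were called there too (91.3% of the wild type calls, 12.7% of the 1483 calls in miR-155-/-), beside 6.25% of all genes called in miR-155-/-. The 84 parallel features, all called in miR-155-/- too, were grouped by their profile over arrays that included the miR-155-/- ones. They follow 1 pattern, so their agreement is not that of 84 separate features. Outside the parallel set, all 73 rises and all 50 falls kept their direction, and 63 of 73 rises and 42 of 50 falls were called. The median of the 73 rises was 0.79 in wild type and 0.85 in miR-155-/-, and that of the falls -0.78 and -0.83.

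The largest named changes can be set side by side in both genotypes. Lrg1 differed by 1.79 in wild type and 2.63 in miR-155-/-, Slc5a10 by 1.27 and 1.58, Rbp7 by -2.04 and -1.44, and Ldc1 by -1.56 and -1.95. The fatty acid oxidation list had a median of 0.41 in wild type with 4 of 40 called, and 0.55 in miR-155-/- with 18 of 40 called. Genes over 400 kb had a median of 0.22 in wild type and 0.42 in miR-155-/-. The miR-155-/- value includes 48 h replicate 3, which stood apart from its group. Relative to saline, the median of the 722 genes over 200 kb was -0.64, -0.56, -1.69 and -0.63 on the miR-155-/- arrays at 48 h (replicates 1 to 4). At 72 h it was -0.49, -0.47, -0.4 and -0.44. Other lists differed in value between the genotypes. Macrophage and monocyte markers had a median of -0.35 in wild type and 0.30 in miR-155-/-, fibroblast and pericyte markers -0.40 and 0.10, and MHC class II genes -0.52 and -0.05. Tubular injury markers had a median of 0.14 in wild type with none of 23 called, and 0.57 in miR-155-/- with 7 called higher. The differences between these medians were not tested. The miR-155-/- medians include 48 h replicate 3. On the miR-155-/- arrays at 48 h the macrophage list had mean log2 levels of -1.51, -1.52, -2.89 and -1.42 (replicates 1 to 4). At 72 h they were -1.79, -1.43, -1.13 and -1.66. The MHC class II list had -1.42, -1.42, -2.95 and -1.64 at 48 h, and -2.09, -1.66, -1.61 and -1.95 at 72 h. In both lists replicate 3 was the lowest at 48 h.

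The difference between the genotypes in this interval was called for no gene with limma (0 higher, 0 lower), and 507 genes (2.14%) had an unadjusted p under 0.05. The smallest adjusted p was that of Angptl7, a secreted angiopoietin-like protein, which differed by -0.32 ± 0.29 in wild type and by 1.99 in miR-155-/- (difference -2.31, adjusted p = 0.0982). The next were Gdnf, Rmdn2, Pole and Slco2a1 (adjusted p = 0.691 to 0.859). The difference between the numbers of calls in the genotypes was not itself tested.

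**Figure D5:**
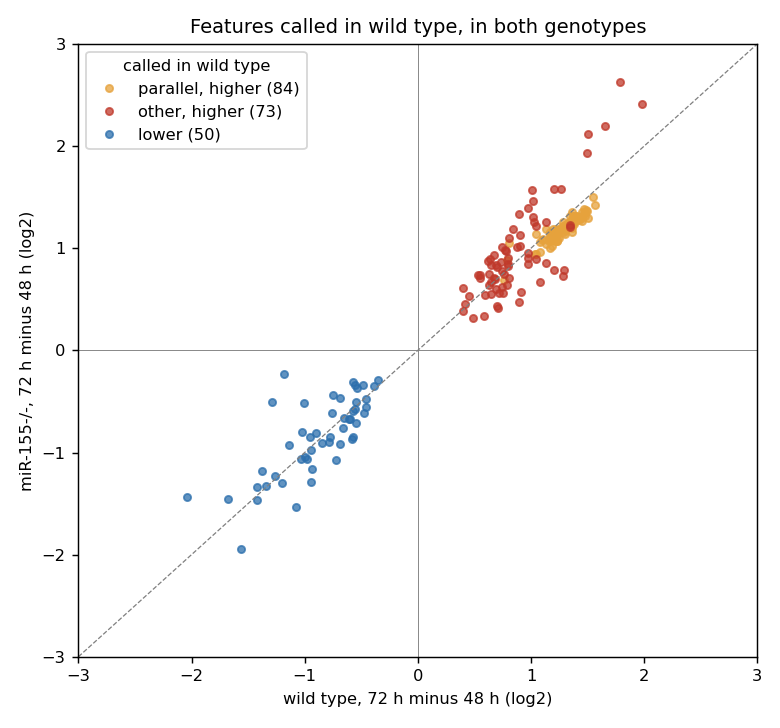
Change at 72 h against 48 h (log2) in miR-155-/- kidney (vertical) against wild type kidney (horizontal) for the 207 features called in wild type, coloured as parallel features (84), other rises (73) and falls (50), with the dashed line of equal change. In every point the 2 changes have the same sign. The parallel features were grouped by their profile over arrays of both genotypes, so their agreement is not that of separate features.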

How the data were processed

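Kidney RNA was hybridised to 1-colour Agilent mouse arrays. Per the file headers, Agilent Feature Extraction 10.7.3.1 wrote the deposited processed intensity of each spot, already corrected for background. The value table deposited by the authors holds intensity scaled to a common 75th percentile, and was used only as an alternative. From the 43020 non-control spots, outlier flags were removed, spots of a probe averaged (39429 probes), and log2 intensity taken minus the 75th percentile of its array (1841 to 2543 in the 8 arrays compared, 69.2% to 81.7% of probes above background, none saturated). Each gene was represented by its brightest probe, and 69.1% of probes had a symbol. Features were tested if some group, of the 8, had the probe well above background in each of its 4 arrays and if 3 of 4 values were left in every group (23743 features).

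All 8 groups entered 1 limma 3.58.1 fit (R 4.3.3) with lmFit and eBayes, with 24 residual degrees of freedom and Benjamini-Hochberg adjustment over all features. Named genes are the 12 largest called rises and falls whose groups do not overlap, 10 fixed injury and stress genes, and up to 4 members of each list with the smallest unadjusted p. For rises the rule's 12 include parallel features, and the next rises outside them were added after their values were seen. The members and lists were chosen with earlier results of these data known. Results for some genes are not reported here. The array mean signal was not used, and the normexp alternative took the median signal in its place. On data simulated for this comparison, with 23743 features in all, 10 of 67 changes of 0.5, 45 of 67 of 1 and 57 of 66 of 2 (log2) were called. Among the features left unchanged, 4 were called. The simulated noise was independent between genes and arrays, with 1 spread per gene in all groups. It held no correlation within slides (0.235 in the data), no parallel features and no outlying arrays. These counts describe that setting only. The number of arrays limits the precision.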

Additional observations from a re-analysis of the deposited data

Results flagged for a closer look

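Among 308 groups of 4 arrays, for 154 named genes, 8 held an array whose gap to the nearest other, divided by the whole range, exceeded Dixon's 95% critical value. Chance gives this in about 1 of 20 groups. Gaps and ranges were taken on log2 values, while the levels below are scaled intensities. At 72 h, Mdm2 was highest in replicate 3 (35400, next 26100, gap 0.868). Ucp2 was lowest at 72 h in replicate 1 (880, next 1700, gap 0.855). Pola1 was highest at 72 h in replicate 1 (108, next 102, gap 0.838), and so was Thy1 (86.7, next 52.6, gap 0.899). At 48 h, Itgam was highest in replicate 1 (11900, next 6220, gap 0.921). Psat1 was lowest at 48 h in replicate 3 (6970, next 7670, gap 0.886). Ube2e2 was lowest at 48 h in replicate 1 (725, next 850, gap 0.863). Cfd was lowest at 48 h in replicate 4 (139, next 2590, gap 0.884).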

How the results depend on the processing

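Against 157 rises and 50 falls in wild type and 751 and 732 in miR-155-/-, normexp background correction gave 17 wild type falls, and 255 rises and 99 falls in miR-155-/-. Median scaling gave 32 falls in wild type and 382 in miR-155-/-. Slide as a random block gave 260 and 118 in wild type, 1156 and 1267 in miR-155-/- and 1 gene lower for the difference of the genotypes. A fit of the compared groups only gave 241 and 125 in wild type, and 10 and 6 in miR-155-/-. Array weights gave 724 and 665 in wild type, 1835 and 2235 in miR-155-/- and 1 gene lower for the difference. The lowest weights were 0.07 for miR-155-/- 48 h replicate 3 and 0.11 for miR-155-/- 24 h replicate 3. Both arrays entered the spread used for the wild type comparison as reported. Why these settings changed the counts was not tested. Chosen after seeing the data, leaving out the parallel features gave 39 rises and 21 falls, the adipocyte covariate 48 and 11, and the arrays low in adipocyte markers (3 against 1) 0 and 1. Leaving out 1 array gave 50 to 182 rises and 10 to 74 falls in wild type, 357 to 918 and 325 to 927 in miR-155-/-, and 0 to 2 genes lower for the difference. The 123 calls outside the parallel set kept their direction wherever they were tested, with 119 of them tested when every array had to be above background. Equal replicate numbers did not pair the samples (correlations of 0.19, -0.16, -0.02 and 0.09, with no array closest to its own number), and with the replicate block there were 180 rises and 78 falls. Values of uncalled genes changed sign. Gdnf (-0.11 in the comparison as reported) was 0 with normexp and 0.15 on the arrays low in adipocyte markers. Mdm2 (-0.01) was 0.01 with median scaling, 0.02 and 0 with slide as a fixed or random block, 0.14 with array weights, 0 with the covariate and 0.3 on the low arrays. Cidec (-0.12) was 0.1 with array weights, 0.78 with the covariate and 0.73 on the low arrays. The adipocyte genes Plin1 (-2.16) and Retn (-1.07) were among them, with Plin1 at 0.51 with the covariate and 0.46 on the low arrays and Retn at 0.04 on the low arrays. Rmdn2 (0.04) was -0.01 with the covariate and Klf9 (0.37) -0.08 on the low arrays. Without single arrays, Mdm2 ranged from -0.13 to 0.11, Cidec from -0.34 to 0.14, Hmox1 from -0.14 to 0.25, Rmdn2 from -0.05 to 0.13, Cdkn1a from -0.06 to 0.17 and Havcr1 from -0.15 to 0.91.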

Other observations

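Other listed groups held values not described above. Red blood cell markers had a median of -0.96 at 72 h against 48 h, with 8 of 10 lower in direction and none called. Of 22 Nrf2 and glutathione genes 18 were higher in direction (median 0.16), and 5 were higher and 1 lower at an unadjusted p under 0.05, with none called. Androgen-responsive kidney genes had a median of -0.23, with 10 of 14 lower in direction and none called. Of the proximal tubule list, the organic anion carrier Slc22a8 differed by 1.11 ± 0.44 and Cyp27b1, which activates vitamin D, by 1.30 ± 0.58, neither called.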
